A study of Oryza sativa with 8 samples.

Results

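The genes described here are those whose ratio to untreated callus moved by at least 0.9 on the log2 scale under gibberellin (GA) and by no more than 0.3 under abscisic acid (ABA). A probe was taken when its mean over 4 GA arrays was at or beyond 0.9 in size, all 4 GA arrays had the same sign, and its mean over 4 ABA arrays lay between −0.3 and 0.3. The rule was met by 163 probes for 159 genes, of 17763 probes for 15636 genes that had 1 gene and enough values. GA raised 111 of these probes (110 genes) and lowered 52 (49 genes). A further 6 probes that met the limits carry names that the rule leaves out and are not counted. The members were chosen by their measured GA and ABA means, so their values are given as a description with no test.

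The series holds 8 arrays of a 22K rice oligonucleotide design, each comparing hormone-treated with untreated callus in 2 dyes. The callus came from the scutellum, the tissue of the embryo that faces the endosperm, of Nipponbare, a japonica rice. It had grown for 30 d on 10 µM 2,4-D, a synthetic auxin that keeps callus dividing, before 3 d with 50 µM GA or 50 µM ABA. On GA arrays 04 and 05 and ABA arrays 20 and 24 the treated sample was in Cy3, and on GA arrays 07 and 08 and ABA arrays 19 and 23 it was in Cy5. Array values below are always given in that order, GA arrays 04, 05, 07 and 08 and then ABA arrays 20, 24, 19 and 23. The labels do not say whether arrays of a hormone came from separate cultures, or whether arrays shared an untreated sample. The spread between arrays may therefore be technical. GA and ABA arrays carry different runs of array numbers, so an array batch and the hormone cannot be told apart.

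All values are log2 ratios, where 1 is a doubling and −1 a halving relative to untreated callus. The labels describe treated over untreated, but arrays of opposite dye orientation within a hormone ran against each other as deposited, with correlations over all probes of −0.82 to −0.70 for GA and −0.61 to −0.51 for ABA. The values were therefore read as 1 fixed dye ratio, taken as Cy5 over Cy3, and turned on arrays with the treated sample in Cy3. If that ratio ran the other way, the raised and lowered genes would change places and the membership would stay. No source gives the base of the logarithm, and base 10 was assumed. Every fold rests on that base, and so does the membership, since the limits were applied to log2 values. A ratio carries no level, so the callus label could not be checked against marker levels, and fewer cells of a type cannot be told apart from less RNA per cell. Turned, arrays of 1 orientation correlated at 0.87 to 0.96 for GA and at 0.94 for ABA, against 0.70 to 0.82 for GA and 0.51 to 0.61 for ABA between orientations.

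GA is a growth hormone that is made from a diterpene through a chain of synthases and oxidases. It binds the receptor GID1, which then leads to the removal of the DELLA protein SLR1 and frees the factors that SLR1 holds back. In rice, GA is known for stem and leaf elongation and for switching on hydrolytic enzymes in the germinating grain, where ABA opposes it.

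Probes with a GA mean of at least 0.9 and a positive ratio on all 4 GA arrays numbered 287. Of these, 114 (39.7%) had an ABA mean within 0.3 of 0, 155 (54.0%) had one below −0.3 and 18 (6.27%) one above 0.3. Of 172 probes with a GA mean of −0.9 or less and a negative ratio on all 4 GA arrays, 55 (32.0%) lay within 0.3 of 0 under ABA, 17 (9.88%) below −0.3 and 100 (58.1%) above 0.3. Over all 17763 probes, 15648 (88.1%) had an ABA mean within 0.3 of 0. The 2 hormones were each compared with untreated callus, and the labels do not say whether they shared it. With the limits turned round, 73 probes were changed by ABA and not by GA.

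**Figure D1:**
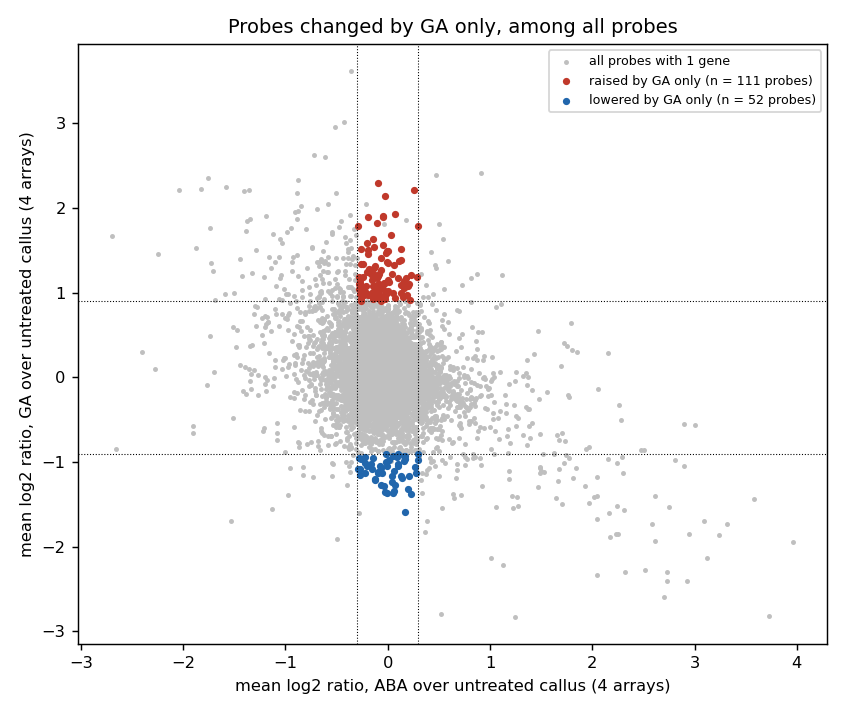
Mean log2 ratio of each probe under GA (vertical axis) against its mean under ABA (horizontal axis), each over 4 arrays. Grey points are all 17763 probes, red points the 111 raised and blue points the 52 lowered by GA only, and dotted lines mark the limits of 0.9 and 0.3. Most grey points beyond 0.9 under GA lie outside the 0.3 limits, on the opposite side of 0 under ABA.

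The raised probes had GA means of 0.91 to 2.30 with a median of 1.15, a change of 1.87-fold to 4.92-fold with a median of 2.22-fold. The lowered probes had GA means of −1.60 to −0.91 with a median of −1.08, 1.87-fold to 3.02-fold lower with a median of 2.11-fold. Over all probes the GA median was −0.005 and the ABA median −0.005. Large changes were mostly rises, since 18 raised probes and 1 lowered probe reached 1.5 in size, and 3 raised probes and no lowered one reached 2. The SD over the 4 GA arrays had a median of 0.14 in both directions, against 0.11 over all probes.

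With limma, fitted over all probes, all 163 members were called under GA at an adjusted p under 0.05, beside 49.0% of all probes. Under ABA 79 of the 163 members (48.5%) were called, beside 41.8% of all probes. Because the rule used both contrasts, nothing is read from these counts. The calls under ABA went up for 14 and down for 42 of the 111 raised probes, and up for 10 and down for 13 of the 52 lowered ones, beside 3209 up and 4221 down (23.7%) of all 17782 probes fitted. The ABA mean was below 0 for 81 of the 111 raised probes and for 26 of the 52 lowered ones. That count was not made over all probes, whose ABA median was −0.005.

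On single ABA arrays the members ran from −0.61 to 0.61, and 86 of the 163 had all 4 ABA arrays within 0.3 of 0. For 80 members the arrays of opposite orientation had ABA means of opposite sign, and for 60 at least 1 orientation had an ABA mean beyond 0.3. The rule asked for an ABA mean near 0, which by itself favours orientations of opposite sign. These counts were not made over all probes, so whether they are particular to the members is not known. The difference between orientations had a median size of 0.17 under GA and 0.23 under ABA for the raised probes, and of 0.16 under GA and 0.24 under ABA for the lowered ones. Over all probes it was 0.13 under GA and 0.17 under ABA. Of the raised members, 60 of 111 were higher with the treated sample in Cy5 under GA and 69 of 111 under ABA, and of the lowered members 14 of 52 under GA and 16 of 52 under ABA. Over all 17763 probes these counts were 7984 under GA and 9043 under ABA. Each orientation is a pair of arrays, so the dye and the arrays cannot be told apart, and their part in single memberships was not tested.

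Of the 159 genes, 30 (18.9%) carry a gene name and the others only a locus number, against 2131 of 15636 (13.6%) measured genes with a name. The 30 named genes, 19 raised and 11 lowered, are described first, by what their products do. The groups below were formed from these names with the values known, so the number of genes in a group is not a finding. Other probes of a family, as given below, are those whose gene has a name or synonym of that family. Relatives with only a locus number are not among them. Members were chosen by their GA mean, so a member standing apart from its named relatives is not a finding.

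Among the raised genes was 1 of auxin transport. PIN2 is an efflux carrier that moves auxin out of root cells in a set direction. Its ratios were 1.64, 1.59, 1.36 and 1.04 on the GA arrays, against 0.17, 0.21, −0.25 and −0.41 on the ABA arrays. The mean under GA was 1.41 ± 0.27 (SD, n = 4), a 2.65-fold rise, and under ABA −0.07 ± 0.31 (SD, n = 4), with the ABA orientations on opposite sides of 0. The 4 other PIN probes stayed between −0.09 and 0.00 under GA and ran from −1.76 to 0.11 under ABA. PIN2 was thus the only probe with a PIN name past 0.9 under GA.

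Sugar handling was represented by 3 raised genes. SWEET11, a sucrose exporter that is also the bacterial blight susceptibility gene Xa13, had ratios of 0.85, 0.87, 1.95 and 1.03 under GA, against 0.22, −0.04, 0.12 and 0.11 under ABA. Array 07 stood well above the other 3, the GA mean was 1.18 ± 0.53 (SD, n = 4), and SWEET11 had the widest spread of the named raised genes. CIN2, the cell wall invertase GIF1 that splits sucrose outside the cell and is known for grain filling, was much more even, at 1.17, 1.13, 1.08 and 1.15 under GA and −0.03, 0.03, 0.37 and 0.27 under ABA. Its GA mean was 1.13 ± 0.04 (2.19-fold), while its ABA values were near 0 in the Cy3 orientation and above 0.25 in the Cy5 orientation. A related invertase probe, CIN4, had a GA mean of 1.41 ± 0.29 and missed the ABA limit narrowly, with an ABA mean of −0.3002, and a CIN7 probe stood at 0.06 under GA.

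TPP9 is a phosphatase that makes trehalose from its phosphate, a sugar signal in plants. It had 1.06, 1.02, 0.92 and 0.74 under GA, against 0.02, 0.00, −0.15 and −0.30 under ABA. These GA values average 0.94, close to the limit, and without array 04 the gene no longer met the rule. Of the 4 other TPP probes, TPP1 at 0.74 ± 0.12 and TPP10 at 0.62 ± 0.12 were also above 0 under GA, and TPP3 and TPP2 stood at 0.15 and −0.14.

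The raised genes of the cell wall and of phenolic side chains were 4. CSLH1 belongs to a cellulose synthase-like group whose barley member makes mixed-linkage glucan of grass walls. It stood at 1.49, 1.48, 1.25 and 1.13 under GA and at −0.22, −0.18, −0.33 and −0.32 under ABA, below 0 on all 4 ABA arrays. Its GA mean of 1.34 (2.52-fold) exceeded those of the 19 other CSL probes, which ran from −0.27 to 0.81. AT5, a BAHD acyltransferase of the group that attaches phenolic acids to grass cell wall components, had 1.19, 1.16, 1.27 and 1.36 under GA, against −0.26, −0.16, −0.20 and −0.22 under ABA. It was even across arrays of each hormone, with a GA mean of 1.24 ± 0.09. The highest of the 7 other AT probes was at 3.62 under GA and the lowest at −0.30.

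ROMT-15 is of the caffeoyl-CoA O-methyltransferase class, which methylates lignin and ferulate precursors. Its GA ratios were 1.101, 1.17, 1.28 and 1.32 and its ABA ratios −0.33, −0.30, 0.04 and 0.03. The 3 other ROMT probes found by name lay between −0.07 and −0.01 under GA. PRX74, a class III peroxidase of the kind secreted to the wall, had 0.80, 0.68, 1.06 and 1.33 under GA and −0.08, −0.01, 0.36 and 0.49 under ABA. Both sets were higher in the Cy5 orientation, and without GA array 08 PRX74 fell short of the limit.

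GLO4, GER3 and MT4A are linked to redox reactions and metals. GLO4, of the glycolate oxidase family of peroxisomes, had 1.49, 1.71, 1.401 and 1.49 under GA, against 0.08, 0.10, 0.18 and 0.15 under ABA. Its mean of 1.52 ± 0.13 (2.87-fold) was the highest of the named raised genes, and its ABA values were small on every array. The 5 other GLO probes ran the other way or stayed near 0 under GA, from −1.60 to 0.00. Those at the 2 ends of that range belong to 1 gene, GLO1, whose probes thus differed by far more than their spread.

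GER3, a germin-like protein of the cell surface, had 1.25, 1.17, 1.03 and 1.16 under GA and −0.05, −0.12, 0.04 and 0.13 under ABA. Among 7 other GER probes, GER2 was at 0.88 ± 0.13 under GA, just short of the limit, GER1 at 0.23, and the rest between −0.07 and −0.04. Germin-like genes of this group include close copies, so a probe may take up RNA of more than 1 of them. MT4A, a metallothionein, which binds metals through cysteines, had 1.205, 1.16, 1.13 and 1.02 under GA and 0.10, 0.15, −0.03 and −0.16 under ABA. The other metallothionein probes were spread on both sides of 0, from −1.09 to 1.05 under GA.

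Light perception and kinase signalling gave PHOT1A and WNK3. PHOT1A, a phototropin, is a blue-light receptor kinase that bends growth toward light. It had 0.99, 1.02, 1.31 and 1.16 under GA, against −0.23, −0.19, 0.17 and 0.10 under ABA, where the orientations lay on opposite sides of 0. WNK3, of a kinase family that lacks the usual catalytic lysine, had 1.51, 1.53, 1.46 and 1.53 under GA and −0.37, −0.25, −0.11 and −0.03 under ABA. Its GA mean of 1.51 ± 0.03 (2.84-fold) had the smallest spread of the named raised genes. A second WNK3 probe had a like GA mean of 1.53 ± 0.48 but an ABA mean of −0.36 ± 0.29, outside the limit. The probes of other WNK genes lay between −0.05 and 0.56 under GA.

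Of the raised transport and protein-folding genes, AMT2-2 takes up ammonium. It had 0.87, 0.77, 0.99 and 1.09 under GA, against −0.39, −0.26, −0.23 and −0.15 under ABA. Its second probe read 1.45, 1.39, 1.397 and 1.16 under GA and −1.82, −1.42, −1.72 and −1.95 under ABA. On that probe AMT2-2 was thus raised by GA and strongly lowered by ABA, so its place among genes changed by GA only rests on 1 of its 2 probes, and that probe missed the GA limit without array 08. PDIL1-2, a protein disulfide isomerase-like enzyme that helps secreted proteins fold, had 1.34, 1.32, 1.399 and 1.32 under GA and −0.06, −0.08, −0.47 and −0.36 under ABA. Its GA values varied by little, with a mean of 1.34 ± 0.04, while both Cy5 ABA arrays were beyond −0.3 and the ABA limit was missed without ABA array 20. The 11 other PDIL probes had GA means from −0.43 to 0.32.

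The raised regulators were GATA15, HOS66 and HSFB4B. GATA15, the GATA zinc finger factor known as NL1 for its part in panicle form, had 1.05, 1.04, 1.19 and 1.16 under GA, against −0.33, −0.31, −0.28 and −0.18 under ABA. It was close to the ABA limit and no longer met it when ABA array 23 was left out. HOS66, a homeobox gene of the KNOX family, had 0.68, 0.73, 1.32 and 1.36 under GA and −0.19, −0.15, 0.04 and 0.21 under ABA. Its GA ratios averaged 0.70 in the Cy3 and 1.34 in the Cy5 orientation, so its mean of 1.02 ± 0.37 falls between 2 separate pairs of arrays. HSFB4B, a class B heat stress factor, had 0.80, 0.83, 0.96 and 1.04 under GA and −0.31, −0.32, −0.20 and −0.20 under ABA, and of the named raised genes it was the closest to the GA limit and missed it without GA array 07 or 08. The 20 other HSF probes lay between −0.57 and 0.45 under GA. OC-X, for which no role is given here, had 1.26, 1.31, 1.42 and 1.33 under GA, against −0.08, −0.04, 0.18 and 0.19 under ABA.

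**Figure D2:**
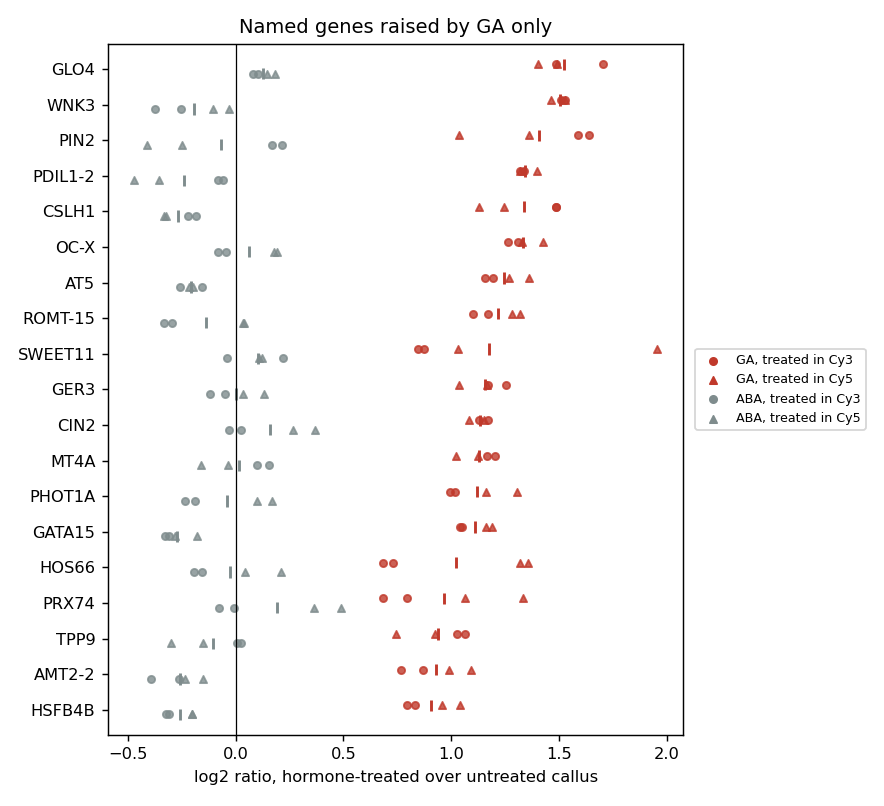
Log2 ratio of hormone-treated over untreated callus on each array for the 19 named genes raised by GA only, ordered by GA mean. Red marks are GA and grey marks ABA, circles are arrays with the treated sample in Cy3 and triangles in Cy5, and short vertical lines are means of 4 arrays. The GA means run from 1.52 for GLO4 to 0.91 for HSFB4B, and SWEET11 has 1 GA array, at 1.95, apart from the other 3.

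Several of the lowered genes act on auxin, ethylene and brassinosteroid. GH3-8 is an enzyme that joins the auxin IAA to amino acids and so takes it out of use. It had −1.42, −1.43, −1.32 and −1.30 under GA, against 0.02, 0.00, 0.09 and 0.12 under ABA. Its mean of −1.37 ± 0.07 (2.58-fold lower) was the lowest of the named genes, and its ABA values were near 0 on every array. The 8 other GH3 probes lay between −0.14 and 0.29 under GA.

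IAA4 is an Aux/IAA protein, a repressor that auxin causes to be broken down. Its GA ratios were −1.08, −1.13, −1.34 and −1.58 and its ABA ratios 0.28, 0.21, −0.34 and −0.28. The ABA mean of −0.03 ± 0.32 came from orientations of opposite sign, each more than 0.2 from 0. Among 26 other Aux/IAA probes the GA means ran from −0.85 to 1.37, 14 of them within 0.3 of 0. These 3 auxin genes thus included 1 raised transporter, PIN2, and 2 lowered genes, GH3-8 and IAA4.

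ACO1 is an ACC oxidase, which carries out the last step of ethylene synthesis. It had −1.30, −1.25, −1.17 and −1.35 under GA, against 0.13, 0.09, 0.09 and −0.03 under ABA. The GA mean was −1.27 ± 0.07 (2.41-fold lower) and the ABA values lay within 0.13 of 0.

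The brassinosteroid genes were D11 and CYP734A6. CYP734A6 is a cytochrome P450 that inactivates brassinosteroids, and it had −1.19, −1.19, −1.14 and −1.12 under GA and 0.19, 0.22, 0.23 and 0.17 under ABA. It was very even, with a GA mean of −1.16 ± 0.03 and an ABA mean of 0.20 ± 0.03 on the other side of 0. D11, a P450 of brassinosteroid synthesis whose loss gives dwarf plants with small round grains, had −0.83, −0.76, −1.05 and −1.41 under GA, against 0.08, 0.00, −0.45 and −0.53 under ABA. A second D11 probe had a GA mean of −0.12 ± 0.08 and an ABA mean of 0.18 ± 0.09, so the probes of D11 do not give 1 value, and the member probe missed the limits without GA array 08 or without ABA array 20.

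The lowered genes of sugar conjugates and of the wall were BGLU31 and TBL13. BGLU31, a family 1 glucosidase of the group that also transfers glucose between acceptors, met the limits on both of its probes. The first read −1.08, −1.05, −1.09 and −1.09 under GA and −0.35, −0.28, −0.22 and −0.24 under ABA. The second read −1.002, −0.93, −1.43 and −1.50 under GA and −0.01, 0.03, −0.23 and −0.27 under ABA. The probes differed by little in their GA means, −1.08 and −1.22, though the second depended on orientation and the first did not. Other BGLU probes, 32 in all, spread from −2.79 to 1.404 under GA.

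TBL13, which adds acetyl groups to xylan, had −0.67, −0.72, −0.99 and −1.34 under GA, against 0.53, 0.48, −0.11 and −0.24 under ABA. No named gene had a larger spread under ABA than TBL13, whose mean there was 0.16 ± 0.40 with orientations of opposite sign. Without GA array 08 it fell short of the GA limit. The 5 other TBL probes were between −0.01 and 0.30 under GA.

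The lowered genes of light perception and regulation were phyC, NAC68 and TGAL11. The red-light receptor phyC, a phytochrome, had −0.96, −1.02, −0.73 and −1.07 under GA and −0.24, −0.25, −0.12 and −0.27 under ABA. Of the other phytochromes, PhyB had a GA mean of −0.74 ± 0.15 and an ABA mean of −0.07 ± 0.09, and PHYA one of 0.07 ± 0.10 under GA and 0.02 ± 0.13 under ABA. A blue-light receptor, PHOT1A, was thus raised, while phyC was lowered and PhyB lay below 0 but short of the limit.

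NAC68, a NAC transcription factor also called NAC4, had −1.01, −1.04, −1.202 and −1.53 under GA and 0.49, 0.37, −0.12 and −0.19 under ABA. TGAL11, a TGA-type bZIP factor, had −0.72, −0.71, −1.02 and −1.19 under GA and 0.44, 0.36, −0.20 and −0.21 under ABA. In both genes the Cy5 arrays read lower than the Cy3 arrays under either hormone. The 10 other NAC probes lay between −0.60 and −0.02 under GA, and the 6 other TGA probes between −0.45 and 0.55. CLPB-C, a ClpB chaperone that resolves protein clumps, had −0.75, −0.78, −0.87 and −1.24 under GA, against 0.20, 0.13, −0.11 and −0.30 under ABA. GA array 08 carried both TGAL11 and CLPB-C past the limit, and TGAL11 also needed array 07.

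**Figure D3:**
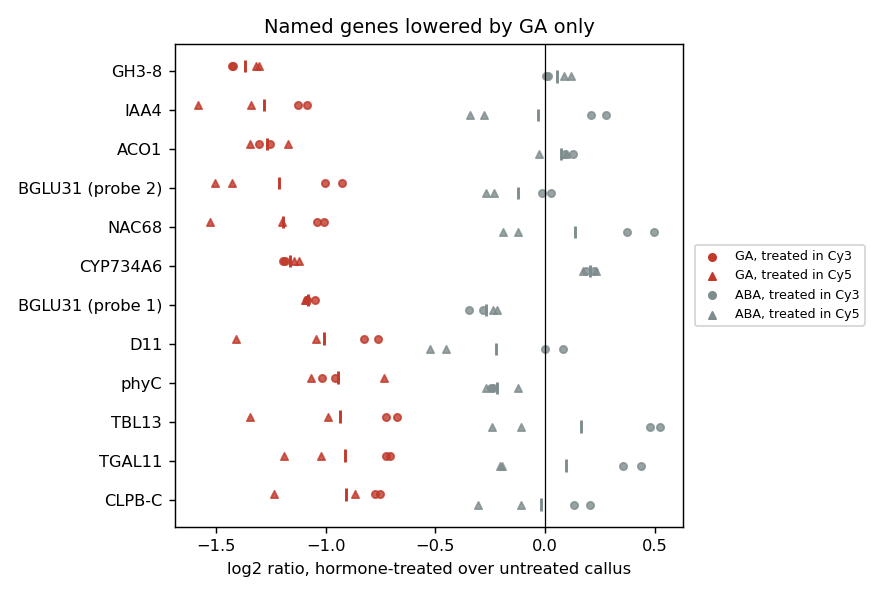
Log2 ratio of hormone-treated over untreated callus on each array for the 11 named genes lowered by GA only, BGLU31 with both of its probes. Marks are as in the plot of raised genes. The lowest GA mean is −1.37 for GH3-8, and NAC68, TBL13, TGAL11, IAA4, CLPB-C and D11 have ABA arrays on both sides of 0 by dye orientation.

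**Figure D4:**
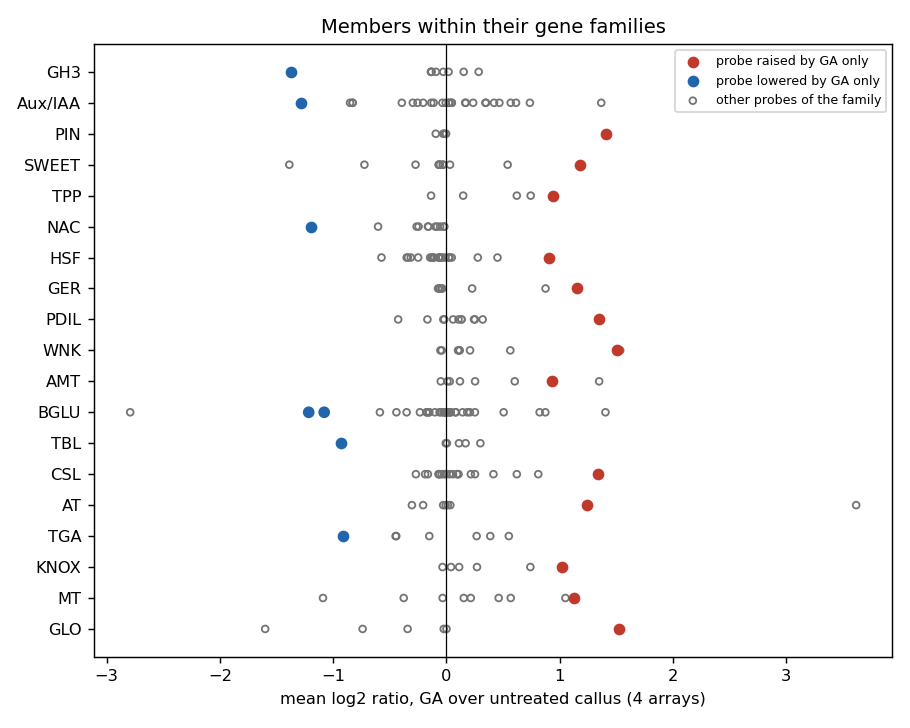
Mean log2 ratio under GA over 4 arrays for every probe of the families with at least 4 probes beside the member. Filled marks are probes raised (red) or lowered (blue) by GA only, and open marks are the other probes of that family. The member lies farther from 0 than all other probes in GH3, PIN, TPP, NAC, HSF, GER, PDIL, TBL, CSL, TGA, KNOX and MT. Another probe lies farther from 0 than the member in Aux/IAA, SWEET, BGLU, AMT, WNK, AT and GLO. Families hold only probes found by name, and members were chosen for a large GA mean.

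The remaining 129 genes carry only locus numbers, for 92 raised and 40 lowered probes. Among these were the largest changes of the members in both directions. LOC9267450 had 2.19, 2.19, 2.36 and 2.46 under GA, against −0.24, −0.19, −0.04 and 0.10 under ABA. LOC4350344 had 2.07, 1.93, 2.72 and 2.15 under GA, against 0.32, 0.07, 0.37 and 0.28 under ABA. Their GA means of 2.30 and 2.22 are rises of 4.92-fold and 4.65-fold. The rule set GA and ABA means apart, so the gap between their GA and ABA arrays is not a separate finding. On the lowered side, LOC4345836 had −1.54, −1.54, −1.48 and −1.83 under GA and 0.39, 0.35, 0.03 and −0.10 under ABA. LOC9267997 met the limits on 2 probes, with GA means of −1.38 ± 0.47 and −1.24 ± 0.27 and ABA means of 0.23 ± 0.22 and 0.04 ± 0.32. The remaining probe of LOC9267997 had 0.21, 0.22, −0.22 and −0.08 under GA and 0.34, 0.12, −0.68 and −0.43 under ABA. Its GA mean of 0.03 ± 0.22 thus came from orientations of opposite sign. On no GA array did that probe reach the values of the other 2.

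Some genes had several probes. The further probes counted here are those that did not meet the rule, so their values are partly set by it and are no independent check. Over all probes the GA means had a lower quartile of −0.10 and an upper quartile of 0.12. Of the 159 genes, 25 had more than 1 probe, and in 4 of them 2 probes met the limits. In 22 genes, 25 further probes did not. Under GA, 15 of these 25 lay within 0.3 of 0, 6 lay between 0.3 and 0.9 in the direction of the member, 4 were past 0.9 in that direction and none was beyond 0.3 in the other direction. Of the 15, 1 probe, of LOC4328631, had 0.95, 0.90, −0.80 and −0.44 on the GA arrays, orientations of opposite sign and a ratio that it shared with 6 other probes. Its mean of 0.15 is therefore no measure of that gene. The 4 past 0.9 all had ABA means below −0.3, which is why the rule did not take them. Among them was 1 gene whose 3 probes had GA means of 2.14, 2.96 and 0.04. Probes differ in the stretch and the transcript they bind, and their part in these differences was not tested.

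**Figure D5:**
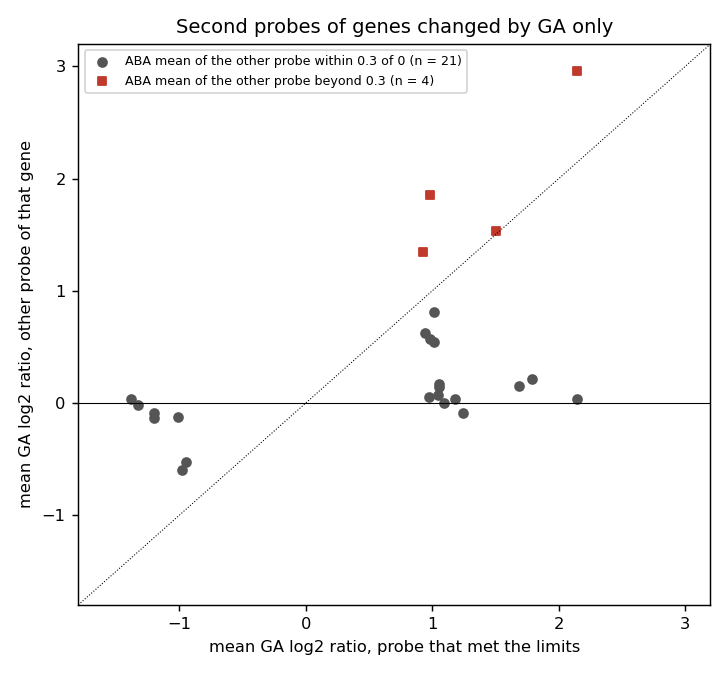
Mean GA log2 ratio of the 25 further probes (vertical axis) against the mean of the probe of that gene that met the limits (horizontal axis), over 4 arrays each. Red squares are the 4 further probes with an ABA mean beyond 0.3 in size, and the dotted line marks equal values. Of the 25 further probes, 15 lie within 0.3 of 0 and the 4 red squares lie past 0.9.

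At the GA limit, the raised probes just inside had means of 0.906 (HSFB4B) and 0.908, and those just outside 0.899 and 0.896. The lowered probes just inside had −0.906 and −0.909 (CLPB-C), and those just outside −0.899 and −0.897. At the ABA limit, the raised probes just inside had ABA means of 0.298 and −0.290, with GA means of 1.79 and 1.78, and those just outside −0.3002 and −0.305, with GA means of 1.41 and 0.95. For the lowered probes the values just inside were 0.298 and 0.292, with GA means of −0.97 and −0.91, and those just outside 0.306 and 0.325, with GA means of −0.94 and −1.21. Of the 163 members, 140 met the rule without each GA array in turn, and 112 without each of the 8 arrays in turn. Of the 31 named probes, 21 met it without each array.

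The members lay on all 12 chromosomes, from 0.533% of the measured genes of chromosome 11 to 1.47% of those of chromosome 4. In 1 pair, LOC4334181 and LOC4334183, both lowered, the member genes had 1 gene between them, and no other pair lay within 3 genes in the RefSeq gene order of assembly ASM3414082v1. The annotation gives 2 of the 159 genes as other RNA rather than protein-coding genes.

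The genes of the GA pathway itself were read from a list of 49 names, of which 11 had a probe. In limma's fit over all probes, 1 of the 11 was raised and 5 were lowered under GA at an adjusted p under 0.05, beside 26.2% raised and 22.8% lowered over all probes. The median of the list was −0.08, against −0.005 over all probes. GA20OX3, the GA 20-oxidase that makes GA precursors, fell most, with −0.95, −0.91, −1.11 and −1.16 under GA (mean −1.03 ± 0.12, limma adjusted p = 1.54e-08), against 0.06, 0.08, −0.18 and −0.28 under ABA. CIGR2, a GRAS-family gene known to respond to GA, had −1.06, −1.02, −0.86 and −1.02 under GA (mean −0.99 ± 0.09, limma adjusted p = 1.08e-07), against 0.12, 0.06, −0.04 and 0.00 under ABA. Both meet the limits of the rule and are among the names it leaves out, and GA20OX3 had been looked at when the direction of the ratios was chosen, so its fall is no independent sign of that direction.

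The receptor gene GID1 had −0.54, −0.58, −0.67 and −0.96 under GA (mean −0.69 ± 0.19, limma adjusted p = 1.76e-05), against 0.31, 0.25, −0.34 and −0.38 under ABA. Smaller falls under GA were called for the ent-kaurene oxidase D35 at −0.22 ± 0.09 (limma adjusted p = 0.00078) and for CIGR1, the GRAS relative of CIGR2, at −0.14 ± 0.10 (limma adjusted p = 0.0423). CYP88A5, the kaurenoic acid oxidase, was the raised gene, with 0.13, 0.37, 0.46 and 0.55 under GA (mean 0.38 ± 0.18, limma adjusted p = 0.000136), against −0.30, −0.26, −0.24 and −0.07 under ABA. Not called under GA were the diterpene cyclase CPS1 at −0.04, the deactivating P450 CYP714D1 at −0.05, the repressor SPY at 0.06, the kinase EL1 at −0.07 and the transcription factor GAMYB at −0.08. With at least 2-fold required as well as the call, only GA20OX3 passed.

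Markers of organs that callus can form were read from a list of 50 names, of which 21 genes had 23 probes. Under GA 6 probes were raised and 10 lowered in limma's fit, beside 26.2% raised and 22.8% lowered over all probes, and the list had a median of −0.04. Among leaf markers 0 were raised and 3 lowered of 5 probes, among root markers 1 and 2 of 3, among shoot meristem markers 3 and 1 of 7, and among seed markers 2 and 4 of 8. The largest rises were in OsCASP1, a protein of the root endodermis barrier, at 1.81 ± 0.21 under GA (limma adjusted p = 8.99e-09) against −0.04 ± 0.12 under ABA, and in OSH71, a KNOX gene of the shoot meristem, at 0.74 ± 0.07 under GA (limma adjusted p = 1.07e-07) against −0.19 ± 0.05 under ABA. OsCASP1 also meets the limits and is left out by name. The largest falls were in the late embryo proteins EM, at −2.83 ± 0.14 under GA (limma adjusted p = 7.78e-09) against 1.25 ± 0.21 under ABA, and rab25, at −2.13 ± 0.26 under GA (limma adjusted p = 1.7e-08) against 1.01 ± 0.09 under ABA. EM, like GA20OX3, had been looked at when the direction was chosen.

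The count of 6 raised markers was 3 without GA array 08 and 3 without the dye term. It includes the amylase gene AMY1.3, with ratios of 0.95, 0.90, −0.80 and −0.44 under GA (limma adjusted p = 0.0462). Its values were shared to within 0.002 on every GA array by 7 listed probes, AMY1.3 among them, so they are not particular to that gene. No member is among these 7 probes. Of the other listed amylase genes with a probe, AMY1.2 stood at −1.20 ± 0.40 under GA and 1.19 ± 0.56 under ABA. AMY1.4, counted as lowered, had 0.32, 0.22, −0.59 and −0.83 under GA, orientations of opposite sign (mean −0.22 ± 0.58, limma adjusted p = 0.00405). AMY1.5, counted as raised, had 0.34, 0.30, 0.08 and −0.05 under GA (mean 0.17 ± 0.19, limma adjusted p = 0.0052). The part of organ formation in the members' changes was not tested.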

How the data were processed

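The authors deposited 1 table with a ratio for each of 22575 features on each array, LOWESS-normalized per the labels. The deposited values were read as log10 ratios, and no source used here gives the settings of the array software or the spot background. They were turned to log2 with 3.32 log2 units per log10 unit. Exact zeros, 92 to 243 per array, were treated as missing. Probe annotation listed 17788 features, 17769 of them with 1 gene; 17782 had at least 3 values per hormone and were fitted, and the 4787 unlisted features were left out of the members. Names came from the RefSeq gene table of assembly ASM3414082v1.

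Per probe, limma 3.58.1 in R 4.3.3 fitted a GA mean, an ABA mean and 1 dye term over 8 arrays (5 residual and 3.93 prior degrees of freedom), with Benjamini-Hochberg adjustment over all 17782 probes. The fit was also run on simulated data with noise drawn separately for each array. That run cannot speak for arrays that share a culture or an untreated sample. Tables were built with pandas 2.3.3 in Python 3.11.15. The fit treated all arrays as independent. Precision is limited by the number of arrays and by the number of separate cultures, which the labels do not give.

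The members and lists were chosen with earlier results of these data known. Named genes were all members with a gene name, the members nearest each limit, every measured gene of the GA pathway list, and the 2 largest called changes per direction among organ markers. The 4 further loci, the pair of neighbours, the family relatives and the listed amylase genes were chosen after their values were seen. Of the GA pathway names, 2 that other genes share were not used. Alternatives were other limits, centring, scale and quantile normalization, other dye terms, single orientations, probes averaged per gene, a 2-fold minimum and leaving out each array.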

Additional observations from a re-analysis of the deposited data

Results flagged for a closer look

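Of 130 groups of 4 arrays looked at, 3 had 1 array far from the other 3, its gap to them above Dixon's critical value. Chance gives about 1 in 20 such groups. SWEET11 stood at 1.95 on GA array 07, against 0.85, 0.87 and 1.03 on GA arrays 04, 05 and 08. For the cytokinin-activating enzyme LOG, 1 of its 2 probes stood at 0.29 on GA array 08, against −0.13, −0.16 and −0.16 on the other GA arrays. The same probe of LOG stood at 0.27 on ABA array 19, against 0.09, 0.10 and 0.11 on the other ABA arrays.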

How the results depend on the processing

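Without each array in turn the members numbered 108 to 122 raised and 47 to 66 lowered. Over the same fits the GA pathway list had 1 to 1 raised and 4 to 6 lowered, the organ markers 3 to 7 raised and 9 to 11 lowered, and all probes 7239 to 9662 called under GA and 5540 to 8858 under ABA. With a GA limit of 0.8 the lowered members numbered 82. With each ABA array required to lie within 0.3 of 0 the members numbered 57 raised and 29 lowered, because fewer probes can meet that limit. Quantile normalization gave 78 raised and 45 lowered. Without the dye term 3 organ markers were raised and 4443 probes called under ABA, and with a dye term for each hormone 2 GA pathway probes were raised; the cause was not tested. With at least 2-fold as well as the call, the GA pathway list had 0 raised and 1 lowered, the organ markers 1 raised and 3 lowered, and all probes 361 called under GA and 242 under ABA. Among values of single named members, 302 moved by less than the spread between arrays and 8 by more, with no sign turned. Among values of single list genes, 426 kept their sign and side of the threshold, 37 lost the call and 6 gained it. The sign turned in 7, for probes of 4 genes that were not called: without each array in turn rca ran from −0.0536 to 0.0146, LOG from −0.1383 to 0.0422, OSH43 from −0.0629 to 0.0231 and GLUB-5 from −0.044 to 0.0175. No paired analysis was possible because GA and ABA arrays share no array number. Promoter motifs were not searched, since no promoter sequence was used here, and the alternatives planned for them were not run.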

Other observations

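Of the features that the annotation did not list with a gene, 4529 had enough values. Among them 52 had a GA mean of at least 0.9 in size with the same sign on all GA arrays, and 15 raised and 8 lowered features also had an ABA mean within 0.3 of 0. The highest GA mean among unlisted features was 3.72 and the lowest −1.71.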
